A study of Cucumis sativus with 18 samples.

Results

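In ovary culture of cucumber (Cucumis sativus), 70 of the 23248 genes measured were low from day 2 to day 20 of culture and back near their fresh-ovary level at day 30 and day 60. Ovary culture places unpollinated ovaries on medium so that cells inside the ovule, usually of the female gametophyte, form embryos without fertilisation. The plants regrown from such embryos are often haploid, which makes the method a route to pure breeding lines. Ovules in such a culture leave the path they follow on the plant, and the genes they express change with them.

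The study sampled 6 times, each with 3 libraries that its design names biological replicates. The first was the unpollinated ovary, taken fresh, and the second the ovule at day 2 of culture. The other 4 were embryos sampled at day 10, day 20, day 30 and day 60. All libraries carry ovary as their tissue label, and the labels give no cultivar, medium, growth condition or donor plant. What was sampled therefore changed together with time between fresh ovaries, ovules and embryos, and the 2 cannot be told apart. In such bulk samples, fewer cells of a type and less RNA per cell cannot be told apart either.

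The values are RPKM, which is reads per kilobase of gene, scaled to the size of the library. A gene was chosen when its mean was at least 5 RPKM at the high times, which are fresh ovaries, day 30 and day 60, and when these 3 means, each plus 1, lay less than 2-fold apart. The lowest of the 3 also had to be at least 2 times the highest of the low times, which are day 2, day 10 and day 20. The fall and the return of these genes were thus chosen, not found, and are described without a test. Of the 6651 genes with the required steady level at the high times, the 70 chosen ones made up 1.05%. The files give gene IDs without names and the RefSeq table for cucumber held none of these IDs, so no role can be given for any gene, and neither the tissue labels nor the genes could be checked against known markers.

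The library totals, worked out from the steps between RPKM values, were 21.8 to 34.0 M (mega) reads for replicates 1 and 2 and 48.9 to 72.5 M for replicate 3. All 70 genes had at least 47 reads in every library of the high times, and the median over the low times was 391.5 reads per gene and library. Only 7 of the 630 values of the low times rested on fewer than 10 reads, 6 of them on 0. Replicate 1 of day 10 had the fewest genes above 0 of all libraries, 17653 on 23.2 M reads. Replicates 2 and 3 of day 10 had 19121 and 20160, and replicate 2 of day 2, with the lowest total, had 19268.

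The median level of the 70 genes was 17.6 RPKM in fresh ovaries, 3.48 at day 2, 2.67 at day 10, 4.71 at day 20, 16.8 at day 30 and 21.2 at day 60. Relative to fresh ovaries, the median gene stood at 20.8% at day 2, 17.8% at day 10, 27.9% at day 20, 99.0% at day 30 and 121% at day 60. Over the 17974 tested genes above 0 in fresh ovaries, the same medians were 97.3%, 90.7%, 90.6%, 108% and 107%. The rule itself asked for the fall by day 2 and for the rise between day 20 and day 30. These medians thus give the size of both and not their timing. Single genes ranged from 0% to 47.1% of their fresh level at day 2 and from 49.6% to 192% at day 30.

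**Figure D1:**
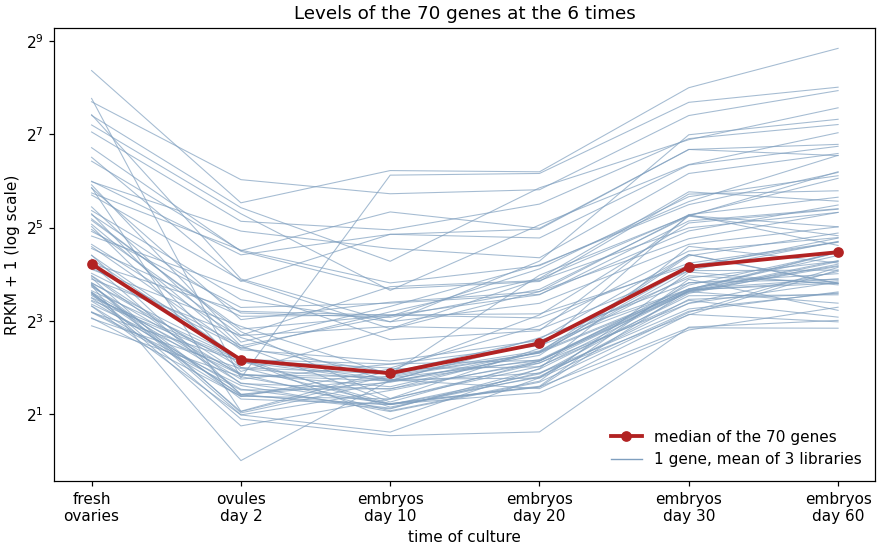
Mean RPKM + 1 (log scale) of each of the 70 genes at the 6 times, with the median gene in red. The median falls to 3.48 RPKM at day 2, is lowest at day 10 with 2.67 RPKM, and is at 16.8 RPKM at day 30.

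The ratio of the lowest high time to the highest low time, each plus 1, had a median of 2.34 and reached 6.54. Csa1G187170 held the highest ratio. It had 138, 202 and 171 RPKM in fresh ovaries, 15.2, 15.1 and 11.4 at day 2, 6.89, 7.90 and 5.84 at day 10, 20.5, 20.1 and 14.7 at day 20, 116, 148 and 115 at day 30, and 139, 188 and 149 at day 60. Its lowest high-time library, at 115 RPKM, lay far above its highest low-time library, at 20.5 RPKM.

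The next ratios belonged to much weaker genes. Csa4G015810, with a ratio of 4.25, averaged 12.6 RPKM in fresh ovaries and 11.7 and 13.0 at day 30 and day 60, and its 9 libraries of the low times read between 0.827 and 2.64. Csa2G258100 had 15.9, 21.2 and 23.3 RPKM in fresh ovaries, 3.31, 2.67 and 4.65 at day 2, 0, 0.904 and 1.63 at day 10, where replicate 1 held 0 reads and replicate 2 held 20, and 2.82, 3.29 and 2.67 at day 20. Its ratio was 4.15. Its level was back at 23.2 ± 5.19 RPKM at day 30 and 17.9 ± 4.69 at day 60 (SD, n = 3).

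Csa2G368900 and Csa5G608240 shared a ratio of 3.92 and both were highest in fresh ovaries. Csa2G368900 had 61.8, 58.8 and 50.3 RPKM there, and averaged 1.08 at day 2, 2.82 at day 10, 7.73 at day 20, 33.3 at day 30 and 41.1 at day 60. Csa5G608240 stayed at 0.856 RPKM at day 2, 0.449 at day 10 and 0.532 at day 20, and averaged 6.28 at day 30 and 7.05 at day 60. Its fresh ovaries differed among themselves, with 16.3, 9.58 and 7.85 RPKM.

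The other 5 of the 10 highest ratios lay between 3.76 and 3.17. Csa4G416980 averaged 2.63 RPKM at day 2, 1.10 at day 10 and 2.26 at day 20, and 15.5 at day 30. Csa2G011420 averaged 35.4 RPKM in fresh ovaries, 1.52 at day 10 and 37.7 at day 30, and Csa4G015780 averaged 11.1, 1.30 and 10.00 RPKM at the same times. Csa3G127760 was still climbing at the end, with 14.2 ± 3.14 RPKM in fresh ovaries, 1.03 ± 0.205 at day 2, 20.0 ± 1.79 at day 30 and 28.5 ± 2.80 at day 60 (SD, n = 3 each).

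Csa4G154320 had the highest level of the 70 genes and completed the 10 highest ratios. It had 275, 397 and 315 RPKM in fresh ovaries, 50.4, 48.7 and 36.6 at day 2, 69.2, 82.6 and 69.2 at day 10, 79.7, 69.3 and 67.9 at day 20, 258, 253 and 253 at day 30, and 428, 482 and 466 at day 60. The day 60 libraries were all above the fresh ones, and the day 30 libraries all below them. The next levels over the high times were those of Csa7G372360, Csa3G150030, Csa6G517400 and Csa1G187170. Csa3G150030 had one of the flattest low phases, with 207 ± 12.8 RPKM in fresh ovaries, 64.2 ± 14.1 at day 2, 51.9 ± 8.12 at day 10 and 55.2 ± 6.26 at day 20 (SD, n = 3 each).

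In 68 of the 70 genes every library of the 3 high times lay above every library of the 3 low times, against 5.70% of the 18153 genes tested, a contrast that the choice of the genes used. The exceptions were Csa3G131980 and Csa3G889700. In Csa3G131980 the libraries numbered 1 were high and those numbered 3 low at each time, as with 28.3 and 10.2 RPKM at day 20 and 62.6 and 27.8 at day 30. Over the 70 genes, the library numbered 1 was the highest of its time in 31 genes at day 2 and in 40 in fresh ovaries. The other times lay between these counts, and the same counts over all genes were not worked out. Csa3G889700 is the shortest of the 70 genes, with a length of 186 bases recovered from the values, and its 3 libraries of day 2 read 9.96, 3.21 and 3.08 RPKM.

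To see the pattern in libraries that the choice had not used, the rule was applied again with the libraries of 1 replicate number held out at every time. With replicate 3 held out, 68 genes were chosen, and in all 68 the 3 held-out high libraries lay above the 3 held-out low ones. This order held for 21.5% of the 6610 genes with a steady level at the high times. With replicate 2 held out it held for all 72 chosen genes, against 21.97% of 6672 genes, and with replicate 1 held out for 68 of 69, against 23.7% of 6559.

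The size of the gap carried over less fully. A ratio of at least 2 in the held-out libraries was met by 72.1%, 69.4% and 58.0% of the chosen genes with replicates 3, 2 and 1 held out, and by 0.983%, 1.03% and 1.04% of the steady genes. The median ratio of the chosen genes was then 2.26, 2.29 and 2.17. With 1 held-out library per time there is no test of these shares. The held-out libraries are replicates of the same times that chose the genes, and the steady genes were not chosen on the low times. The distance between the 2 sets of shares thus largely restates the choice.

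**Figure D2:**
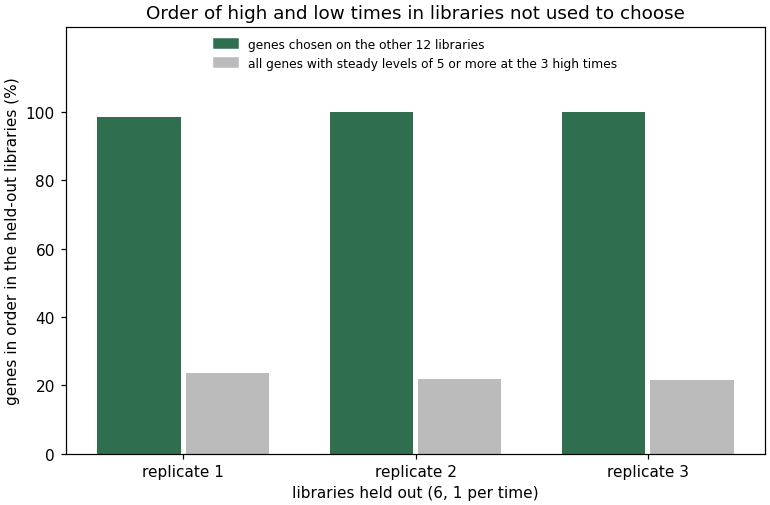
Percent of genes whose 3 held-out high-time libraries lie above the 3 held-out low-time libraries, for genes chosen on the other libraries (green) and for all genes with a steady level at the high times (grey). The chosen genes reach 98.6% to 100% and the steady genes, which were not chosen on the low times, 21.5% to 23.7%.

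The choice capped the levels at day 2, day 10 and day 20 alike but did not set these 3 times against each other, so changes among them were tested with limma on log2(RPKM + 1) over all 18153 genes and all 18 libraries, adjusted after Benjamini and Hochberg. The filter on low values asked for at least 1 RPKM in 3 or more libraries of any time. The level required at the high times thus let all 70 genes pass. Csa5G608240, for example, averaged under 1 RPKM at each of the 3 low times. The order of the 3 low-time means differed among the 70 genes. These orders were not tested, and their shares over all genes were not worked out. In 41 of them the day 10 mean was the lowest of the 3, and in 22 the means climbed from day 2 over day 10 to day 20. The remaining 7 had their lowest mean at day 20 or a higher mean at day 10 than at both other times.

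Embryos at day 10 were compared with ovules at day 2 first. At an adjusted p under 0.05, 16 of the 70 genes were higher at day 10, against 21.9% of all genes tested, and 23 were lower, against 31.9%. The shares, 22.9% and 32.9% of the 70, were near those of all genes. The median log2 fold change was -0.19 over the 70 genes and -0.11 over all genes. On replicates 1 and 2 alone, 13 were higher and 20 lower, with 19.1% and 27.5% of all genes.

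The exception was Csa7G372360, which had 68.9, 54.9 and 82.4 RPKM at day 10, against 2.66, 1.77 and 2.82 at day 2. The groups were far apart, and the log2 fold change was 4.35 (SE 0.21, limma adjusted p = 8.48e-11). This gene then held its level, at 71.5, 58.4 and 81.7 RPKM at day 20, and reached 205 ± 41.0 at day 30 and 257 ± 46.6 at day 60, against 217 ± 49.7 in fresh ovaries (SD, n = 3 each). Its low phase thus had a deep floor at day 2 and a plateau at day 10 and day 20.

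Csa3G841990 was the other large rise. It had 3.63, 1.87 and 1.40 RPKM at day 10, on 93, 65 and 89 reads, against 0 reads in all 3 libraries of day 2. Taking 3 reads over the 3 day 2 libraries as the floor, 0.0266 RPKM, day 10 was at least 86.5-fold higher and fresh ovaries at least 469-fold. These folds divide means by an assumed floor and were not tested. The tested change from day 2 to day 10, on log2(RPKM + 1), was 1.67 (SE 0.26, limma adjusted p = 5.32e-05). From there the gene rose further, to 4.89 ± 2.18 RPKM at day 20 (limma adjusted p = 0.0229 against day 10), 14.1 ± 2.57 at day 30 and 18.4 ± 1.90 at day 60 (SD, n = 3 each).

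The next, Csa1G181260, had 32.6, 30.0 and 21.2 RPKM at day 10, against 16.4, 16.5 and 7.18 at day 2, a log2 fold change of 1.07 (SE 0.37, limma adjusted p = 0.0221). The groups did not overlap, but the call was lost without replicate 3 of day 2, at 0.71 (limma adjusted p = 0.125), and without replicate 1 or replicate 2 of day 10, at 0.95 and 1.01 (limma adjusted p = 0.0704 and 0.0610). The libraries numbered 3 were also the low ones of this gene in fresh ovaries, with 47.0 RPKM beside 119 and 104, and at day 60, with 50.7 beside 108 and 118.

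Falls from day 2 to day 10 were smaller than the rise of Csa7G372360. Csa6G076800 had 13.0, 8.44 and 13.3 RPKM at day 10, against 41.1, 28.7 and 45.1 at day 2 (log2 fold change -1.64, SE 0.24, limma adjusted p = 3.23e-05). Csa2G011420 had 1.76, 1.28 and 1.51 RPKM at day 10, against 3.76, 6.43 and 7.22 at day 2 (-1.40, SE 0.18, limma adjusted p = 9.72e-06). Csa2G258100 fell by 1.39 on the same scale (SE 0.29, limma adjusted p = 0.000675). In none of these 3 did the libraries of the 2 times overlap, so for them the second sampled time of culture was a deeper low than the first.

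**Figure D3:**
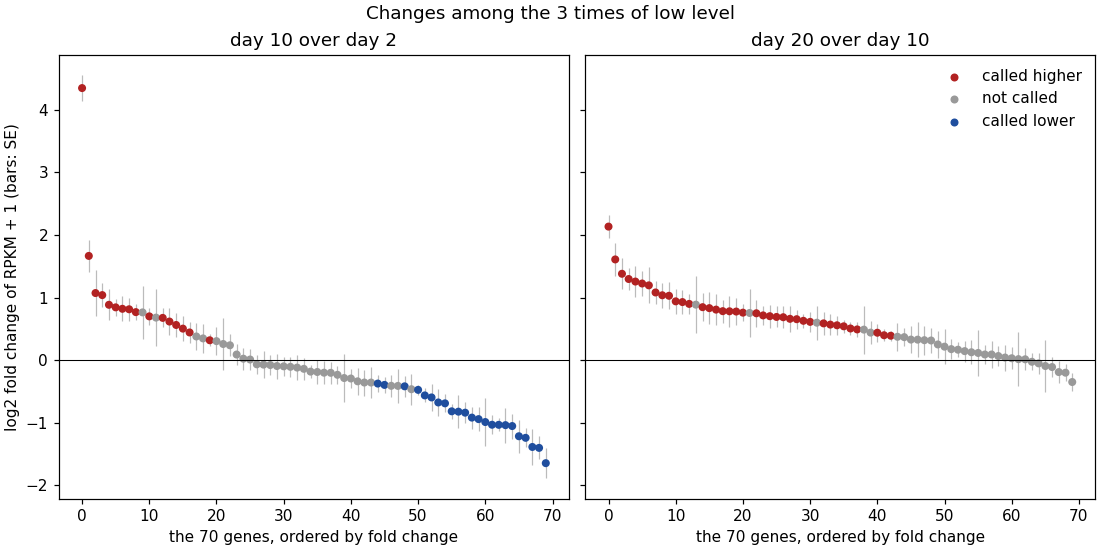
Log2 fold change of RPKM + 1 (points, with SE as bars) of the 70 genes for day 10 over day 2 (left) and day 20 over day 10 (right), each ordered by size. On the left 16 genes are called higher and 23 lower, and on the right 38 are called higher and 0 lower.

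Between day 10 and day 20 every limma call among the 70 genes went one way. Of them, 38 were higher in embryos at day 20 than at day 10, which is 54.3%, against 16.4% of all genes tested. None was called lower by limma, against 14.5% of all genes. At an unadjusted p under 0.05, 41 of the 70 were higher and 1 was lower, against 20.9% and 19.4% of all genes. The median log2 fold change was 0.55 over the 70 genes and 0.01 over all genes tested, and 63 of the 70 means were higher at day 20. Voom on the recovered reads called 34 higher and 0 lower, against 15.7% and 14.7% of all genes. The rule used the day 10 and day 20 means and asked for a rise by day 30. All genes tested were not held to it, and how far the choice itself makes the gap between these shares was not tested.

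The number of calls rests on the spread assumed. Fitted without the other 12 libraries, limma called 16 of the 70 higher and 0 lower, with 9.56% and 7.59% of all genes. On replicates 1 and 2 alone it called 26 higher and 0 lower, with 12.3% and 10.4% of all genes. Leaving out 1 library gave 32 to 39 higher and 0 or 1 lower, with 4807 to 5655 of the 18153 genes called in either direction. The 1 lower appeared without replicate 1 or 2 of day 2 or without replicate 1 of day 30.

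Csa6G454370 led the rise, with 15.2, 14.7 and 14.4 RPKM at day 20, against 2.08, 3.41 and 2.40 at day 10 (log2 fold change 2.13, SE 0.18, limma adjusted p = 1.92e-07). It had stood at 2.97, 3.70 and 2.30 RPKM at day 2, so it was flat up to day 10 and had regained part of its fresh level of 38.3 ± 10.5 RPKM (SD, n = 3) by day 20. Csa6G517400 had 78.4, 41.0 and 50.9 RPKM at day 20, against 27.6, 11.5 and 16.1 at day 10 (1.61, SE 0.26, limma adjusted p = 0.000193). Csa6G076800, which had fallen by day 10, had 40.9, 21.4 and 34.5 RPKM at day 20, a log2 fold change of 1.38 against day 10 (SE 0.24, limma adjusted p = 0.000402).

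For these last genes the low phase was a valley with its floor at day 10. Csa6G517400 and Csa6G076800 stood at 42.0 ± 8.77 and 38.3 ± 8.59 RPKM at day 2 (SD, n = 3), and neither passed the test of day 20 against day 2, with limma adjusted p-values of 0.216 and 0.378.

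**Figure D4:**
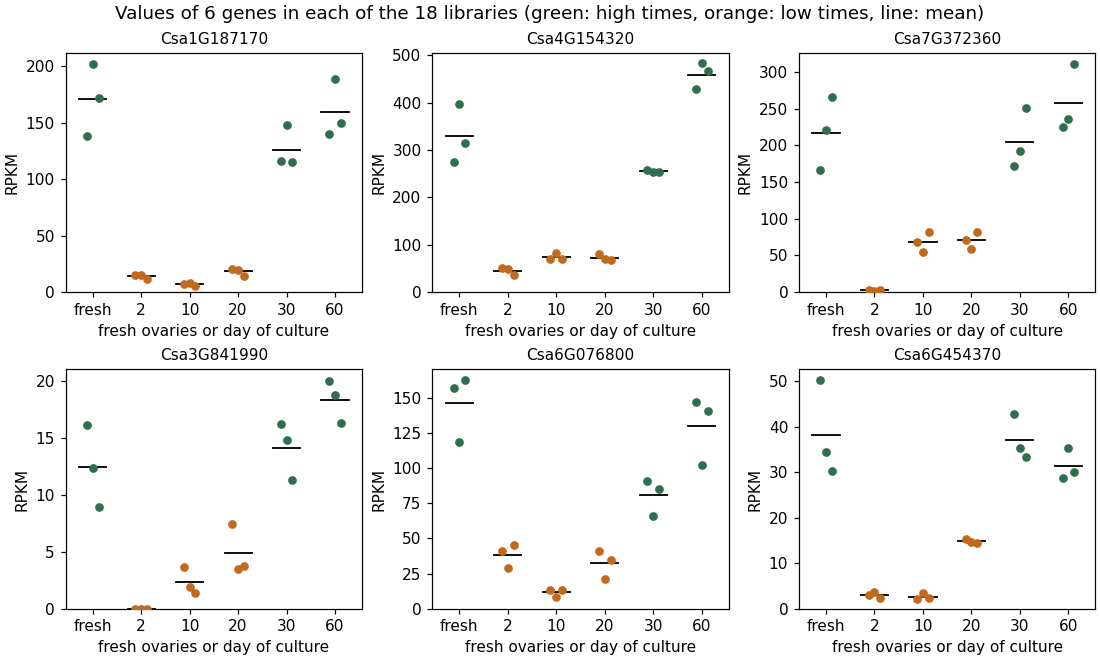
RPKM in each library (points) and the mean of 3 (lines) for 6 of the 70 genes, in fresh ovaries and at days 2, 10, 20, 30 and 60, with high times in green and low times in orange. Csa7G372360 and Csa3G841990 are lowest at day 2, Csa1G187170 and Csa6G076800 at day 10, and Csa6G454370 is low at day 2 and day 10 and partly up at day 20.

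Over the whole low phase, 30 of the 70 genes were higher in embryos at day 20 than in ovules at day 2 and 6 were lower, against 23.6% and 32.6% of all genes tested (limma, adjusted p under 0.05). Among all genes, 42.0% of the calls were higher as deposited and 52.1% under median-ratio scaling, where 35 of the 70 genes were higher and 3 lower, against 27.9% and 25.7% of all genes. The replicate numbers as a block in the model gave 33 higher and 12 lower, against 26.3% and 37.4% of all genes. This comparison uses the same libraries as the 2 steps before it and adds no independent support to them. Here too, all genes tested were not held to the rule. Csa2G368900 was 1 of the genes called higher, with 8.36, 9.04 and 5.78 RPKM at day 20, against 0.998, 1.15 and 1.11 at day 2. Csa6G141420 was among those called lower, with 6.10, 6.40 and 5.22 RPKM at day 20, against 14.4, 14.6 and 6.48 at day 2.

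The return from day 20 to day 30 was part of the choice, and its size is given as a description. All 70 genes were higher at day 30, with log2 fold changes of 1.05 to 2.86 and a median of 1.56. All genes tested had a median of 0.24 at this step, which was 0.02 under median-ratio scaling, where the 70 genes had a median of 1.33 and a lowest value of 0.80. Relative to all genes tested, the 70 thus rose by about the same amount with either scaling, but fewer met the threshold. Under median-ratio scaling 46 genes were chosen and under upper quartile scaling 47, of which 46 and 46 were among the 70.

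Among the high times, the choice allowed less than 2-fold between means but no direction. Day 60 held the highest mean for 43 genes, fresh ovaries for 14 and day 30 for 13, and day 30 held the lowest for 35. The day 60 mean was above the day 30 mean in 55 of the 70, with a median log2 fold change of 0.37, against -0.04 over all genes tested. Day 60 was above fresh ovaries in 50 of the 70, with a median of 0.26 against 0.08. For day 30 against fresh ovaries the log2 fold changes were above 0 in 32 of the 70 as deposited, in 31 under upper quartile scaling and in 22 under median-ratio scaling. Their medians were -0.02, -0.05 and -0.14 in that order, against 0.10, 0.08 and 0.00 over all genes tested. All genes tested were not held to the 2-fold limit, and the same counts for the steady genes were not worked out.

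The steadiest genes over the high times were Csa4G015780, Csa4G015810 and Csa6G101470, whose 3 means plus 1 lay within 1.10-, 1.11- and 1.12-fold. Csa6G101470 had 8.91, 6.31 and 6.58 RPKM in fresh ovaries, 6.78, 7.53 and 9.10 at day 30 and 6.58, 7.07 and 6.96 at day 60, so the 3 times overlapped. The least steady were Csa7G390030, Csa7G372860 and Csa3G144170, at 1.95-, 1.99- and 1.99-fold. Csa7G390030 and Csa7G372860 overshot at day 60, with 16.7 ± 1.66 and 92.7 ± 10.4 RPKM there, against 8.14 ± 1.28 and 52.5 ± 0.593 in fresh ovaries (SD, n = 3 each). Csa3G144170 fell short, with 51.9, 53.0 and 50.0 RPKM at day 30 and 57.8, 52.0 and 53.1 at day 60, against 107, 96.6 and 108 in fresh ovaries.

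In the list of all IDs sorted by ID, 4 pairs of the 70 genes stood within 5 places of each other. How many such pairs any 70 genes would give was not worked out. On log2(RPKM + 1) over the 18 libraries, the pairs had Pearson correlations of 0.983, 0.873, 0.86 and 0.554, in the order described here. Csa4G015780 and Csa4G015810 were 3 places apart and had closely matching levels, with day 30 values of 10.1, 10.7 and 9.21 RPKM in the one and 10.7, 12.5 and 11.8 in the other. The 2 IDs between them did not share the pattern. Csa4G015790 averaged 3.30 RPKM at day 2 and 3.11 in fresh ovaries, and Csa4G015800 averaged 7.48 at day 2 and 5.01 in fresh ovaries. The files do not say whether the genes of a pair are copies of each other, and reads of near-identical copies could be split between them.

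Csa6G141390 and Csa6G141420 were also 3 places apart, with 2 IDs between them whose ratios were under 1. Csa6G141390 had narrow groups, with 41.3, 40.9 and 38.3 RPKM in fresh ovaries, 7.21, 6.75 and 6.67 at day 10 and 24.7, 23.0 and 24.1 at day 30. Csa6G512860 and Csa6G512910 were 5 places apart. Csa6G512870, an ID between them, went the opposite way, with 19.4 RPKM in fresh ovaries, 65.8 at day 2, 132 at day 10, 69.8 at day 20, 37.5 at day 30 and 21.6 at day 60. Csa7G372360 and Csa7G372860 were direct neighbours in the list but differed in the low phase, since Csa7G372860 averaged 21.9 ± 4.14 RPKM at day 2 and 13.0 ± 0.750 at day 10 (SD, n = 3 each).

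The 70 IDs were spread over all 7 numbered ID series of the files. IDs that start with Csa6G made up 24.3% of the 70 and 16.8% of the genes tested, and those that start with Csa5G 7.14% and 13.0%. The gene lengths recovered from the values had a median of 2470.5 bases over the 70 genes, with quartiles at 1489.5 and 3749.25 bases, and of 2867 bases over the genes tested, with quartiles at 1496 and 4621 bases. The labels do not say whether introns count toward these lengths.

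The edge of the group was not sharp. Just inside the ratio of 2 were Csa3G134550, at 2.003, Csa6G101470, at 2.005, and Csa3G414070, at 2.008. Just outside were Csa3G848870, at 1.998, Csa4G064070, at 1.996, and Csa1G031830, at 1.976. Csa3G848870 averaged 15.1 RPKM in fresh ovaries, 3.85 at day 2, 4.27 at day 10, 6.40 at day 20, 15.0 at day 30 and 13.8 at day 60, and was kept out by its day 20 level.

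Outside the 70, likeness was measured as the Pearson correlation over the 18 libraries, on log2(RPKM + 1), with the mean standardised profile of the 70 genes, as a description. The members themselves ranged from 0.746 to 0.994, with a median of 0.950, and 49 other genes reached that median. The 5 most alike were CsaUNG024980, at 0.989, Csa4G000970, at 0.982, Csa3G181440, at 0.980, Csa3G874350, at 0.978, and Csa7G452320, at 0.976. CsaUNG024980 missed the ratio narrowly, at 1.963. Csa3G181440 and Csa3G874350 had larger ratios, 3.57 and 3.72, but high times that lay 2.51- and 2.14-fold apart, since Csa3G874350 averaged 89.6 RPKM in fresh ovaries, 50.7 at day 30 and 110 at day 60.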

How the data were processed

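The deposited values are RPKM per library, per the file headers, computed by the authors. The tools named are TopHat, TopHat2 and HTSeq 0.6.1p2, per the submitters' processing notes. The sources used here do not give genome build, annotation or strand setting. The header of the fresh-ovary table holds its 3 library names in 1 cell, and columns were taken in that order.

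The members and lists were chosen with earlier results of these data known. Levels are means ± SD of 3 libraries. limma 3.58.1 (R 4.3.3, trended and robust empirical Bayes) was run on log2(RPKM + 1), with 1 coefficient per time, on genes with at least 1 RPKM in 3 or more libraries. Fold changes on this scale understate changes of low genes. RPKM does not correct for the make-up of the RNA, so median-ratio and upper quartile scaling were tried.

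Whole reads were recovered from the RPKM steps for 21338 of 21761 genes above 0, within 0.1 read. In 3 simulated sets 99.75% to 99.77% of genes came back exactly. The reads recovered summed to at least 99.999% of each library total. They give depth, gene length and an alternative test (voom), and reads without molecular identifiers overstate precision.

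On simulated reads limma called 67 of 72 genes changed 2-fold, and 24 of 58 changed 1.5-fold, for day 20 against day 10, with 18080 genes tested. These reads were drawn with the same spread setting for every gene and no shared deviation of same-numbered libraries. The rates are thus not those of the real libraries. The p-values measure the spread between these libraries. Same-numbered libraries of day 10 and day 20 deviated together from their group means (r of 0.408, 0.228 and 0.606 for numbers 1 to 3). The main fit did not pair them, and the replicate numbers entered as a block only in an alternative fit. Whether same-numbered libraries share a donor plant, or deviate together through the greater depth of those numbered 3, was not tested.

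Genes were named by rule: the 10 highest ratios, the 5 highest levels, the 3 largest called rises and falls of the 2 successive steps, the 3 smallest and 3 largest spreads of the high times, 3 on each side of the threshold, and IDs within 5 places. Csa3G131980, Csa3G889700, Csa2G368900 and Csa6G141420 at day 20, and the IDs between neighbours, were picked after their values were seen. Other steps used pandas 2.3.3, numpy 2.4.6 and matplotlib 3.10.9 in Python 3.11.15.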

Additional observations from a re-analysis of the deposited data

How the results depend on the processing

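Of 263 alternatives of counts and shares, 252 stayed within 1.5 times, and of 234 alternatives of the named genes in the tested steps 230 kept their direction and call. The other 4 were all of Csa1G181260, including voom, with a log2 fold change of 1.22 (limma adjusted p = 0.0616). Many of these alternatives left out a library of a time that was not compared, which changed the shared spread but not the fold change. A count of 0 that stayed 0 was also scored as unchanged, so these totals say little about stability. The size of the group follows from its rule. A ratio of at least 3 left 13 genes, a pseudocount of 5 left 28, median-ratio scaling 46, and a ratio of at least 1.5 filled the limit of 200 genes. Without 1 library the rule chose 60 to 76 genes, the fewest without replicate 1 of day 30.

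For day 20 against day 10, the fit on these 6 libraries alone called 3113 genes, 16 of the 70 higher, and leaving out 1 library gave 4807 to 5655 genes, with 32 to 39 of the 70 higher and 0 to 1 lower. For day 20 against day 2, the count of lower genes among the 70 was 3 under median-ratio scaling and 12 with the replicate block. The shares of all genes were 25.7% and 37.4%. Without 1 library the count was 4 to 8, with 9207 to 10694 of all genes called in either direction. Where a time kept 2 libraries, these were assumed to vary like the others.

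With the replicate block the 3 comparisons called 46, 42 and 45 of the 70, against 61.5%, 40.2% and 63.7% of all genes tested. For day 20 against day 10 all 6 libraries correlated best with their own number, and the block ended no call of the 70. For day 10 against day 2 the deviations of the libraries numbered 1 to 3 correlated at 0.21, 0.0805 and 0.537. For day 20 against day 2 they correlated at 0.253, 0.0695 and 0.527. In these comparisons 4 and 5 of 6 libraries correlated best with their own number, so same-numbered libraries deviated together in part, least for number 2. What they share was not tested. Voom and the fits on replicates 1 and 2 were chosen after seeing the data. Of the 630 values of the low times 7 rested on fewer than 10 reads, and the part of depth in the calls was not tested.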
